A study of Mus musculus with 26 samples.

Results

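Zhx2, Lonp2, Ggnbp2, Ilvbl and Immp2l are 5 protein-coding genes that the study named as chromatin targets of MaTAR25, a nuclear long noncoding RNA (lncRNA) of mouse mammary tumor cells. They were taken by name from the 45318 genes of the count tables, and all 5 passed the filter on low counts. The study had picked its targets from regions pulled down with MaTAR25 and from genes that changed in the knockout (KO) libraries used here, so the counts of members called against control describe that choice and are not independent evidence. It also ranked its targets by their ChIRP-seq data, so the ranks of the members' peaks are a description too. The comparison of the 2 KO clones and the sequence of the peaks are measures for which no use in the choice is stated. A choice among genes that changed in the KO libraries may still favour genes that differ little between the clones, which was not tested.

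All RNA-seq libraries came from 4T1, a triple-negative mammary carcinoma line of BALB/c mice. The 2 control libraries are labelled wild type, and the study's control for its KO lines was 4T1 cells given Cas9 and a guide RNA against Renilla luciferase, a gene that mouse cells lack. The 3 MaTAR25 KO1 and 4 KO2 libraries came from 4T1 lines in which Cas9 and a pair of guides had deleted the region over the MaTAR25 transcription start site. Each KO group is a line grown from 1 sorted cell, so a KO group holds libraries of 1 clone, and what is particular to a clone and what follows from the deletion cannot be told apart within it. The study describes its controls as single-cell clones too and names control1 for its RNA-seq, while the labels say only wild type. If both control libraries are of 1 clone, its own traits and the deletion cannot be told apart in any comparison with control. In ChIRP-seq (chromatin isolation by RNA purification), biotinylated DNA oligonucleotides complementary to an RNA pull down crosslinked chromatin, whose DNA is then sequenced. The MaTAR25 oligos were used as a total pool of 14 or as pools of 7 odd-numbered and 7 even-numbered oligos in 4T1 cells, and as the total pool in NDL cells. The labels call these primary NDL cells of FVB mice with the genotype MMTV-PyMT, whereas the study's text describes its second ChIRP-seq cells as cNeu, an MMTV-Neu-NDL tumor line, and which is right could not be settled. Oligos against Ppib, the cyclophilin B transcript, served as the control pulldown, with 1 library in 4T1 and 1 in NDL cells. The MaTAR25 pulldowns had 2 total, 2 odd and 3 even libraries in 4T1 cells and 2 total libraries in NDL cells. Each of the 4 peak lists was called on pooled replicates, so peaks have no replicate error and no test.

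The 5 genes act in different parts of the cell. Zhx2 encodes a zinc finger and homeobox protein of the ZHX family, nuclear repressors best known in liver, where Zhx2 keeps fetal genes such as alpha-fetoprotein silent after birth. Lonp2 is the Lon protease of the peroxisome, which processes and clears enzymes of fatty acid oxidation in the peroxisomal matrix. Immp2l is a catalytic subunit of the inner membrane peptidase of mitochondria, which trims the signal sequence of proteins bound for the intermembrane space. Ilvbl, also called HACL2, is a membrane protein of the endoplasmic reticulum that cleaves 2-hydroxy fatty acids in alpha-oxidation. Ggnbp2 binds gametogenetin, a germ cell protein, and is needed for sperm and placental development.

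The 9 RNA-seq libraries held 25367211 to 61110585 counts on genes. The MaTAR25 transcript (1200007C13Rik) was counted 35 and 30 times in control cells, while the KO1 libraries had 2, 7 and 0 counts and the KO2 libraries 11, 1, 9 and 6. Its level fell by 2.63 on the log2 scale over both clones (adjusted p = 0.0561 by edgeR's quasi-likelihood test). Markers of mammary epithelium were high in every library, with 6 genes summing to 1411 to 3845 counts per 1000000 counts on the genes tested (CPM, with library sizes scaled by TMM) although Krt5 had no count. The sum was 2814 to 2973 CPM in the control, 2340 to 3845 CPM in KO1 and 1411 to 2867 CPM in KO2. In KO2 the median log2 fold change of the 5 epithelial markers tested was -0.71 and 1 of them, Cdh1, fell (-0.85, adjusted p = 0.0105 by edgeR). Leukocyte markers summed to at most 0.995 CPM, endothelial markers to at most 1.56 CPM and adipocyte markers to at most 0.0915 CPM, and erythroid markers had no count in any library. The highest leukocyte and endothelial sums were both in KO2 libraries, against at most 0.0439 and 0.214 CPM in the control, and the part of these marker differences, epithelial ones included, in the results below was not tested. The share of counts that fell on no gene also differed, at 33.9% to 34.3% in the control, 34.8% to 35.0% in KO1 and 35.6% to 37.0% in KO2, and its part in the results was not tested either.

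The genes differ greatly in length and in the level of their RNA. In the reference annotation of GRCm38, Ilvbl spans 10.157 kb (chr10:78574346-78584502, forward strand) and Immp2l spans 931.499 kb (chr12:41024090-41955588, forward strand). Ggnbp2 covers 38.457 kb (chr11:84832361-84870817, reverse strand), Lonp2 99.831 kb (chr8:86624043-86723873, forward strand) and Zhx2 145.168 kb (chr15:57694665-57839832, forward strand). Per kilobase of exon, the control libraries averaged 54.0 CPM for Ggnbp2, 20.9 for Zhx2, 20.4 for Lonp2, 9.91 for Ilvbl and 1.49 for Immp2l. In this order only Zhx2 and Lonp2 lay within each other's spread between the control libraries. In the KO clones Lonp2 stood above Zhx2 on the same scale, at 9.92 against 7.51 CPM per kilobase in KO1 and 13.1 against 7.62 in KO2. The strand setting of the counting was not given, which matters most for 3 members. Siah1a ends 134 bases past Lonp2 and Syde1 ends 1 base past Ilvbl, both on the opposite strand, and Lrrn3 lies inside Immp2l on its opposite strand.

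All 5 genes were lower in every KO library than in either control library, an order that 17.6% of the 15023 genes tested showed. With both clones as 1 group, 4 of the 5 genes passed an adjusted p of 0.1 as lower, against 10.7% of all genes tested that were called lower, 11.9% called higher and 22.6% called in either direction. The median log2 fold change of the 5 genes was -0.90, and that of all genes tested was 0.06. In KO1 alone 4 of 5 were called lower (15.7% of all genes), and in KO2 alone all 5 were (15.0% of all genes). The control group had only 2 libraries: without either of them, Zhx2 was the only member still called in the joint comparison, and 2 of 5 were called in each clone. The calls of all genes in the joint comparison then fell from 3392 to 462 without control replicate 1 and to 574 without control replicate 2. As these are bulk samples, fewer cells that express a gene and less RNA per cell cannot be told apart.

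Zhx2 fell the most. It measured 97.5 and 88.0 CPM in the control libraries, 35.6, 38.3 and 26.0 CPM in KO1 and 31.9, 31.5, 26.5 and 45.2 CPM in KO2. The highest KO library thus stood far under the lower control library, and the 2 clones overlapped. The log2 fold change was -1.47 ± 0.20 (SE) over both clones (95% interval -1.91 to -1.02, adjusted p = 0.00243 by edgeR), -1.48 in KO1 (adjusted p = 0.00384 by edgeR) and -1.46 in KO2 (adjusted p = 0.00328 by edgeR). Zhx2 was called under each of the 15 alternative settings in all 3 comparisons with control.

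Lonp2, the peroxisomal protease, measured 105.5 and 112.5 CPM in the control libraries. It stood at 50.2, 57.5 and 51.5 CPM in KO1 and at 59.5, 78.5, 79.8 and 61.6 CPM in KO2. Each KO1 library was under each KO2 library, and all 7 were under the control. Lonp2 fell by 0.80 on the log2 scale over both clones (SE 0.19, adjusted p = 0.0218 by edgeR), by 1.04 in KO1 (adjusted p = 0.00414 by edgeR) and by 0.64 in KO2 (adjusted p = 0.0226 by edgeR).

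Ggnbp2 had the highest counts of the 5 genes, at 248.5 and 262.0 CPM in the control libraries. KO1 measured 156.0, 173.0 and 146.6 CPM and KO2 measured 113.8, 97.5, 142.4 and 127.9 CPM. Here the order of the clones was the opposite of that for Lonp2, with each KO2 library under each KO1 library. The fall was 0.90 on the log2 scale over both clones (SE 0.19, adjusted p = 0.0138 by edgeR), with -0.69 in KO1 (adjusted p = 0.0206 by edgeR) and -1.08 in KO2 (adjusted p = 0.00261 by edgeR).

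Immp2l, the mitochondrial peptidase subunit, was counted least, with 119 and 93 counts in control cells, 117, 32 and 36 counts in KO1 cells and 46, 37, 61 and 55 counts in KO2 cells. In CPM the control libraries stood at 2.61 and 2.84, KO1 at 1.86, 1.06 and 0.974, and KO2 at 1.28, 1.56, 1.38 and 1.12. The library with the highest KO value, KO1 replicate 1, was also the deepest of all 9, and the other 2 KO1 libraries were lower than every KO2 library. Immp2l fell by 1.04 on the log2 scale (SE 0.32, 95% interval -1.75 to -0.33, adjusted p = 0.0543 by edgeR). Its interval was the widest of the 5 genes, and its call was lost in 4 of 15 alternative settings, among them without the filter on low counts and without either control library.

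Ilvbl changed the least. The control libraries measured 44.2 and 43.5 CPM, KO1 measured 33.1, 34.4 and 30.3 CPM and KO2 measured 24.6, 27.5, 36.5 and 35.7 CPM. The groups did not overlap, but the log2 fold change of -0.47 ± 0.18 (SE; 95% interval -0.86 to -0.07) did not pass the test over both clones (adjusted p = 0.106 by edgeR). It was -0.43 in KO1 (adjusted p = 0.159 by edgeR) and -0.49 in KO2, where it passed (adjusted p = 0.0927 by edgeR). Ilvbl is near the threshold in the joint comparison, where it was called by DESeq2 and not by the main test. In KO2 its call was lost in 10 of 15 alternative settings. An exact two-sided permutation test over the libraries gave each of the 5 genes p = 0.0556 for control against all KO libraries, the smallest value that 2 against 7 libraries allow.

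**Figure D1:**
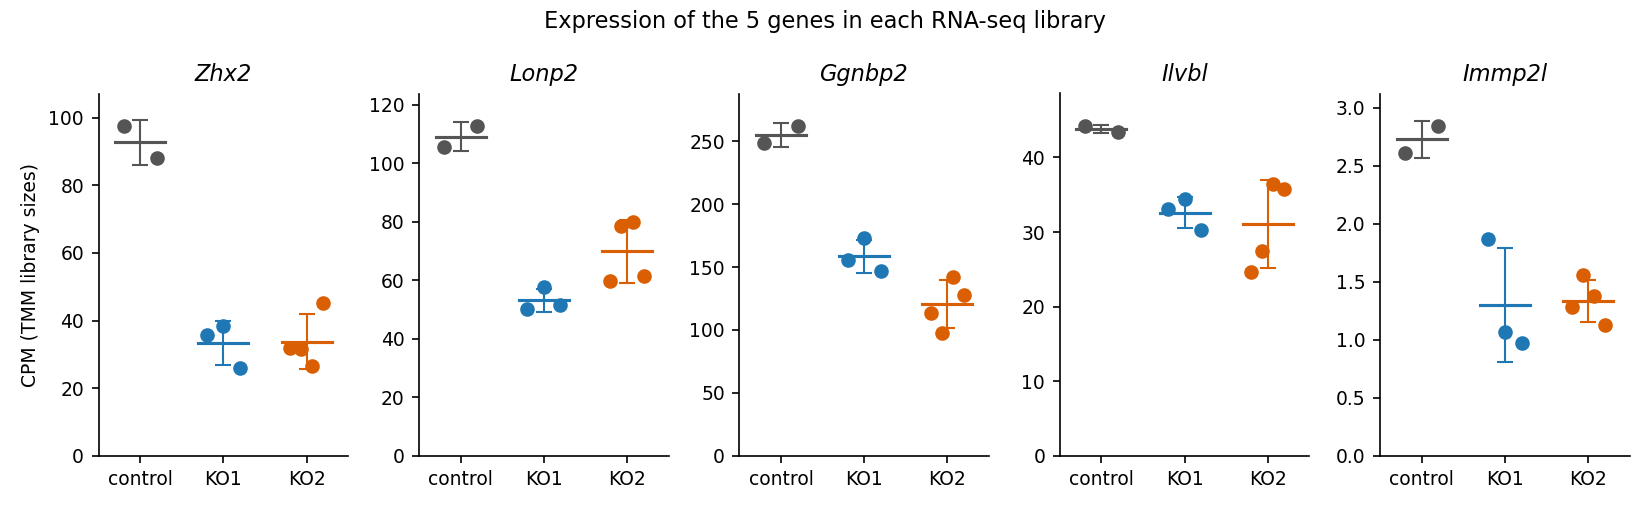
CPM of the 5 genes in each of the 9 libraries, 1 panel per gene with its own linear axis from 0; points are libraries of the control, KO1 and KO2 groups, and bars give the group mean ± SD. In every panel both control libraries lie above all 7 KO libraries, and Lonp2 and Ggnbp2 show the 2 clones apart in opposite orders.

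The 2 clones were then compared with each other. This comparison does not use the means of the control libraries, but those libraries entered the fit's estimate of the spread. No member passed an adjusted p of 0.1, while 10.2% of all genes tested were called lower and 9.43% higher in KO1 than in KO2. DESeq2 also called none of the 5, and 2 of them, Lonp2 and Ggnbp2, had an unadjusted p under 0.05 by edgeR. Lonp2 was lower in KO1, with a log2 difference from KO2 of -0.40 (95% interval -0.73 to -0.06, adjusted p = 0.116 by edgeR), with no overlap of the libraries, as seen for 11.9% of all genes in this direction. Ggnbp2 was higher in KO1 by 0.40 (95% interval 0.07 to 0.72, adjusted p = 0.107 by edgeR), also with no overlap, as seen for 12.6% of all genes in that direction. The exact permutation test gave p = 0.0571 for both genes, the smallest value that 3 against 4 libraries allow. Adjusted over the 20 exact tests of the 5 genes in 4 comparisons, no p was under 0.163.

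The differences between clones for Zhx2, Ilvbl and Immp2l were near 0, with intervals that bound them unequally. For Zhx2 the log2 difference of KO1 from KO2 was -0.02 (95% interval -0.49 to 0.44), and for Ilvbl it was 0.07 (-0.32 to 0.45). For Immp2l it was -0.03, but its interval of -0.75 to 0.69 holds differences nearly as large as the fall from control.

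**Figure D2:**
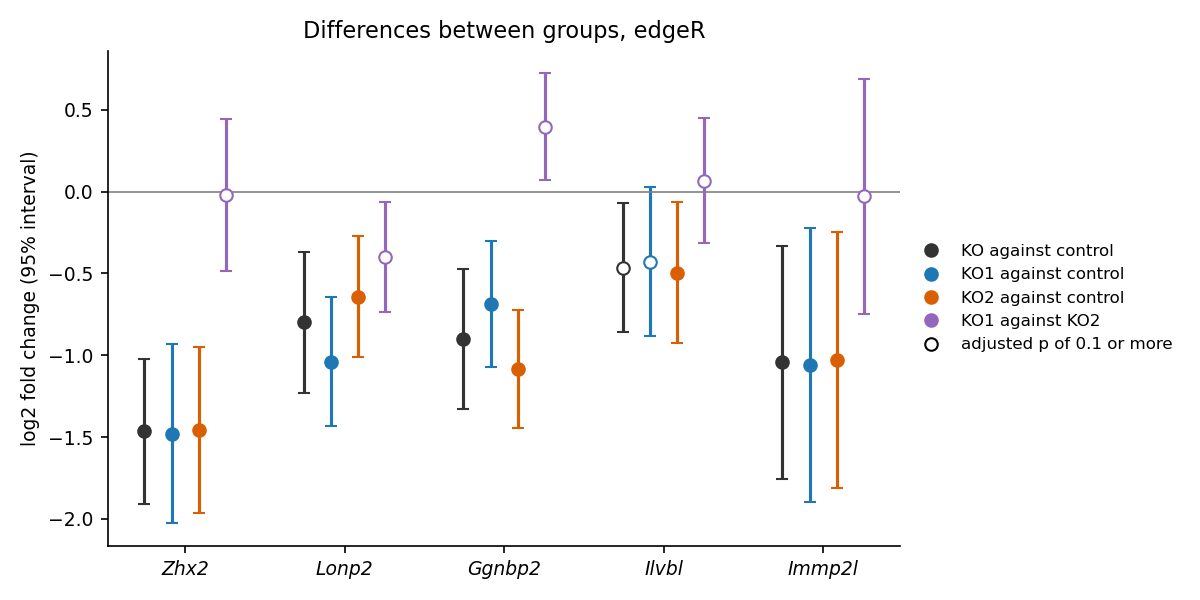
Log2 fold change of each gene in 4 comparisons (both KO clones, KO1 and KO2 against control, and KO1 against KO2), with points for the edgeR estimate and bars for its 95% interval. All 15 estimates against control are below 0, and the 5 estimates between the clones lie between -0.40 and 0.40.

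The genes whose pattern over the 9 libraries was most like that of each member were named by the smallest root mean square difference of log2 CPM (with a prior count of 2 a library) after centring each gene on its mean. For Zhx2 they were Aff1 (0.137), Fbxw4 (0.145) and Tsc22d1 (0.154), while Zhx2 itself varied with an SD of 0.702 over the libraries. For Lonp2 they were Itsn2 (0.0972), Ddx19b (0.101) and Numb (0.104), and for Ggnbp2 Chchd5 (0.0927), Eprs (0.0948) and Qser1 (0.10). For Ilvbl they were Wrn (0.0855), Zfp369 (0.0865) and Ralgapb (0.0915), and for Immp2l Ipo13 (0.128), 2410131K14Rik (0.146) and Tmem116 (0.156). No member was among the 3 genes most like another.

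Genes of the same families and pathways and the neighbours of the 5 genes were read from the same fits. Of those named below, 9 were called over both clones, and as with MaTAR25 itself none of these calls was kept without control replicate 1 or without control replicate 2. With a replicate block the calls of Afp, Pex7, Decr2, Znhit3 and Myo19 were lost too. Without the filter on low counts those of Zhx1, Pex7, Decr2 and Myo19 were lost, and with RLE size factors that of Zhx1.

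Of the ZHX family, Zhx2 and Zhx1 were called lower over both clones and Zhx3 was not called. Zhx1 stood at 66.7 and 58.4 CPM in the control libraries and fell by 0.77 on the log2 scale (SE 0.29, adjusted p = 0.0997 by edgeR), and Zhx3 had a log2 fold change of 0.15. In KO1 the fall of Zhx1 was 1.00 (adjusted p = 0.0478 by edgeR). In KO2 its log2 fold change of -0.63 did not pass (adjusted p = 0.156 by edgeR). Of 5 genes known to respond to Zhx2 in liver, only Afp had enough counts to be tested. Afp, which encodes alpha-fetoprotein, was counted 7 and 0 times in control cells, against 156, 4 and 18 counts in the KO1 libraries and 284, 295, 153 and 41 in the KO2 libraries. It was called higher over both clones (adjusted p = 0.0912 by edgeR) and in KO2 (adjusted p = 0.0306 by edgeR), and it did not pass in KO1 (adjusted p = 0.131 by edgeR). The KO libraries ranged from 0.133 to 12.4 CPM, with the KO1 libraries from 0.133 to 2.49 CPM, so the lowest KO library was under the 0.154 CPM of the higher control library. Over both clones, the call of Zhx1 was lost without any 1 of the 3 KO1 libraries or KO2 replicates 1 or 3, and that of Afp without KO1 replicate 1 or KO2 replicates 1 or 3.

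Over both clones, genes of the peroxisome, where Lonp2 acts, were called at about the rate of all genes tested, of which 22.6% were called (11.9% higher, 10.7% lower). Of 16 peroxins, which build the organelle and import its proteins, 1 was called higher and 2 lower over both clones, with a median log2 fold change of -0.13 against 0.06 for all genes tested. Pex7, the receptor that imports proteins with the second type of peroxisomal targeting signal, rose by 0.85 (adjusted p = 0.0563 by edgeR). Of 23 peroxisomal matrix and membrane proteins, 21 were tested, of which 1 was called higher and 3 lower, Lonp2 among them, with a median of -0.04. Decr2, an enzyme that handles unsaturated fatty acids, had the largest fall, 1.37 (adjusted p = 0.0990 by edgeR), and Amacr, a racemase of branched fatty acids, had a log2 fold change of 0.95 that did not pass (adjusted p = 0.104 by edgeR). The call of Decr2 was lost without KO1 replicate 3 or KO2 replicates 1, 2 or 4. Amacr was called higher in KO1 (1.25, adjusted p = 0.0226 by edgeR) and not in KO2 (0.68, adjusted p = 0.138 by edgeR). In KO2 alone 5 of the 16 peroxins were called lower (15.0% of all genes) and 1 higher (2478 of 15023 genes). In KO1 alone 2 were called lower (15.7% of all genes) and 2 higher (2390 of 15023 genes).

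Of 16 mitochondrial processing peptidases and proteases, 1 was called higher and 2 lower, Immp2l among the latter, against 11.9% and 10.7% of all genes tested. Their median log2 fold change was 0.27, against 0.06 for all genes. Htra2, a serine protease of the intermembrane space, rose by 1.06 (adjusted p = 0.00961 by edgeR), from 37.1 and 41.0 CPM in the control libraries to 59.5 or more in every KO library. Lonp1, the mitochondrial counterpart of Lonp2, was the other protease called lower. Immp1l, the partner subunit of Immp2l, had a log2 fold change of -0.14 (adjusted p = 0.750 by edgeR). None of 3 proteins listed as substrates of the peptidase was called over both clones. Cyc1, the cytochrome c1 of complex III, had a log2 fold change of 0.64 (adjusted p = 0.223 by edgeR), and Diablo, a protein of the intermembrane space, one of -0.24 (adjusted p = 0.420 by edgeR). Cyc1 was called higher in KO1 (0.99, adjusted p = 0.0289 by edgeR).

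Around Ilvbl, 5 of 6 genes of alpha-oxidation and 2-hydroxy fatty acids were tested, of which 1 was called lower and none higher over both clones, with a median of -0.39. The gene called was Fa2h, which makes 2-hydroxy fatty acids. It was low in the control, at 0.856 and 1.04 CPM, and stood at 0.294 CPM or less in every KO library, and fell by 3.07 on the log2 scale (adjusted p = 0.00951 by edgeR). Of gametogenetin and its 2 binding proteins, only Ggnbp2 was called. Ggn had a log2 fold change of 0.56 (adjusted p = 0.336 by edgeR) and Ggnbp1 one of 0.28.

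Neighbouring genes within 200 kb of the members were examined in the same fit. Over both clones, 2 of the 17 neighbours tested were called, against 22.6% of all genes tested. Both were higher (11.9% of all genes) and near Ggnbp2. Znhit3, a factor of small nucleolar RNP assembly, rose by 1.12 (adjusted p = 0.0416 by edgeR), and Myo19, a mitochondrial myosin, rose by 0.61 (adjusted p = 0.0687 by edgeR), while Ggnbp2 fell. The call of Myo19 was lost without KO1 replicate 3. Near Zhx2, Tbc1d31 had a log2 fold change of -0.65 that did not pass over both clones (adjusted p = 0.283 by edgeR) and fell by 1.19 in KO2 (adjusted p = 0.00577 by edgeR). Siah1a, which converges with Lonp2, had a log2 fold change of -0.59 over both clones (adjusted p = 0.114 by edgeR) and fell by 0.90 in KO1 (adjusted p = 0.0120 by edgeR), the clone in which Lonp2 was lower. How far reads of the 2 genes could have been counted for each other was not tested. Syde1, which converges with Ilvbl, had a log2 fold change of -0.02. Near Ilvbl and Immp2l no neighbour was called over both clones, and the one with the largest log2 fold change was Rrp1 (0.52, adjusted p = 0.125 by edgeR) and Dock4 (0.78, adjusted p = 0.274 by edgeR), respectively. Rrp1 was called higher in KO1 (0.72, adjusted p = 0.0266 by edgeR) and not in KO2 (0.36, adjusted p = 0.186 by edgeR).

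In the ChIRP-seq of 4T1 cells with the total pool, 44 of 76806 peaks lay inside the 5 genes or had a promoter of 1 of them as the nearest. The even pool gave 42 such peaks of 64607, the odd pool 38 of 61311 and the total pool in NDL cells 32 of 70329. Scores are those of the peak caller, and as no source used here gives their scaling between lists, peaks are compared by their rank within a list, with rank 1 the highest score. Of the 44 peaks, 35 were in introns, 6 intergenic, 2 at a transcript end and 1 in an exon. The exon was of 9330154K18Rik and 1 of the transcript ends was of Gm47371, neither of which is a member. No peak lay over the outermost annotated start of a member gene, from which distances are given here. The closest peak in any list was 1.276 kb into Immp2l, 3.819 kb into Ilvbl, 3.854 kb before Lonp2, 8.753 kb into Ggnbp2 and 15.531 kb before Zhx2. The lists' own distances, to the nearest promoter of any transcript, were shorter for some peaks. In the total pool they put the highest-ranking peak of Ilvbl 1.216 kb and that of Ggnbp2 1.312 kb from a promoter of the same gene. A Ggnbp2 peak of rank 29964 was 0.318 kb from such a promoter, and the best peak inside Lonp2 was 1.15 kb from one of Lonp2.

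Each gene had 1 region that led its peaks in the total pool. The 5 windows below are shown because they hold the longest run of bases that each leading peak shared exactly with a MaTAR25 oligo, and that run is in capitals in the window and in the oligo. Windows are 240 bases of the forward strand of GRCm38.p6, a C57BL/6J genome, while 4T1 cells are of BALB/c origin. Oligos are written 5′ to 3′, and their bases are counted from the 5′ end.
Zhx2 window, chr15:57603181-57603420: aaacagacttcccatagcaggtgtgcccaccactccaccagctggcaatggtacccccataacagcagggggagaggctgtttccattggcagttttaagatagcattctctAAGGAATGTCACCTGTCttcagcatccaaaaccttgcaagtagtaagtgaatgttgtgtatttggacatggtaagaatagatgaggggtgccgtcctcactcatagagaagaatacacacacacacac
odd oligo 11, bases 3 to 19 shared with the Zhx2 window: agAAGGAATGTCACCTGTCa
Lonp2 window, chr8:86606907-86607146: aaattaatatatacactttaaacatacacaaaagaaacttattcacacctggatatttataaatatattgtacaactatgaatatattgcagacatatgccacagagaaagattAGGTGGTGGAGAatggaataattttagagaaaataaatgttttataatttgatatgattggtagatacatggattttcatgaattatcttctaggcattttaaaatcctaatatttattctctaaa
even oligo 4, bases 2 to 13 shared with the Lonp2 window: cAGGTGGTGGAGAtggaatg
Ggnbp2 window, chr11:84861818-84862057: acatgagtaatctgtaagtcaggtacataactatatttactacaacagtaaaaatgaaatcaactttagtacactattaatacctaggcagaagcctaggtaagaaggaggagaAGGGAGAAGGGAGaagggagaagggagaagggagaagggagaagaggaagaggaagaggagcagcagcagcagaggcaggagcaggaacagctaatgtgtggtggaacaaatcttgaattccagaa
even oligo 12, bases 4 to 16 shared with the Ggnbp2 window: aatAGGGAGAAGGGAGgctc
Ilvbl window, chr10:78578485-78578724: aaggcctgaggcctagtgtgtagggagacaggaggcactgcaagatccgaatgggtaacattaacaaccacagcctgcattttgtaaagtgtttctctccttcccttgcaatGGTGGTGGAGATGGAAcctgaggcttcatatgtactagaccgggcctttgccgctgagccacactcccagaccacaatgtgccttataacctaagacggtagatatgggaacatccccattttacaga
even oligo 4, bases 3 to 18 shared with the Ilvbl window: caGGTGGTGGAGATGGAAtg
Immp2l window, chr12:41584526-41584765: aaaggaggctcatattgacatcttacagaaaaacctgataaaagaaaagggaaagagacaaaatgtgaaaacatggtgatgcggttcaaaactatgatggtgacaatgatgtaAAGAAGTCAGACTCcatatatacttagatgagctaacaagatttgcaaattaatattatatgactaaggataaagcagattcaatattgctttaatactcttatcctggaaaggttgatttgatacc
even oligo 2, bases 3 to 16 shared with the Immp2l window: aaGAGTCTGACTTCTTggca

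The region before Lonp2 (chr8:86606743-86607492) ranked highest. It lay in intergenic DNA 16.9 kb before the gene, with Lonp2 the nearest promoter, and was found in all 4 lists: at rank 16 in the total pool (score 1319.8), rank 8 in the odd pool (score 3163), rank 12 in the even pool (score 1052.4) and rank 38 in NDL cells (score 861.6). It shared 12 bases with even oligo 4 in the window printed above, and the Ilvbl window shared 16 bases with the same oligo. The best peak inside Lonp2, in intron 2 at 28.7 kb from the start, ranked 3038 in the total pool and was also in all 4 lists. Of the 5 regions of Lonp2, 3 were in every list.

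Ilvbl had a single strong region, in intron 6 at 3.8 kb from its start (chr10:78577378-78578953). Its peak ranked 33 in the total pool (score 1108.7), 33 in the odd pool (score 2328.7) and 162 in the even pool (score 548.2). The 16 bases it shared with oligo 4 belong to the even pool, although its rank was higher in the odd list. In the total pool, 12 of 21755 protein-coding genes had a peak inside them that ranked as high, Ilvbl included, a place that the choice of targets by rank may have set. In NDL cells no peak lay inside Ilvbl, and the nearest were 20.955 kb before it (score 32.1) and 162.862 kb after it (score 132.4). The only other peak near Ilvbl, in the odd list at 9.8 kb before the start, ranked 52653.

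Zhx2 had 26 regions over the 4 lists, of which 3 were in all 4 and 5 were in both the odd and the even list. The strongest was intergenic, 91.3 kb before the gene (chr15:57603001-57603751), at rank 34 in the total pool (score 1097.7) and rank 23 in the odd pool (score 2479.7). In the even pool the same region ranked only 22474 (score 54.9), and in NDL cells it ranked 660 (score 486.7). Its 17 shared bases are with odd oligo 11, the longest match among the 5 regions printed. Inside the gene, a peak of intron 1 at 22.5 kb from the start (chr15:57716541-57717800) showed the other order. It ranked 450 in the total pool, 604 in the even pool and 15094 in the odd pool, and it shared 14 bases with even oligo 6. The nearest promoter to it was that of Gm16006 and not of Zhx2.

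Ggnbp2 had no region in both the odd and the even list. Its leading peak, in intron 3 at 8.8 kb from the start (chr11:84861659-84862283), ranked 138 in the even pool (score 563.8), 1174 in the total pool (score 454.9) and 1144 in NDL cells (score 404.4), and no odd peak overlapped it. The 13 bases it shared were with even oligo 12. The odd list held 2 peaks in intron 6 of Ggnbp2, at ranks 14467 and 17668, neither of which overlapped an even peak.

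Immp2l, the longest of the genes, held 40 regions, of which 4 were in all 4 lists and 21 were in 1 list alone. The leading peak of the total pool, 560.7 kb into the gene (chr12:41584476-41585100), ranked 1575 there, 654 in the even pool and 1848 in NDL cells, with no odd peak. It shared 14 bases with even oligo 2 in the reverse orientation, and the nearest promoter to it was that of Gm47374 and not of Immp2l. The leading odd peaks were elsewhere, at 295.9 kb (rank 686) and 775.2 kb (rank 1490), and neither had an even peak. The peak at 775.2 kb shared 14 bases with odd oligo 11, and that at 295.9 kb shared no run of 10 bases or more with any MaTAR25 oligo. The nearest promoter was that of Gm47371 for the peak at 775.2 kb, which lay in an intron of that gene. For the peak at 295.9 kb it was that of Gm47376.

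**Figure D3:**
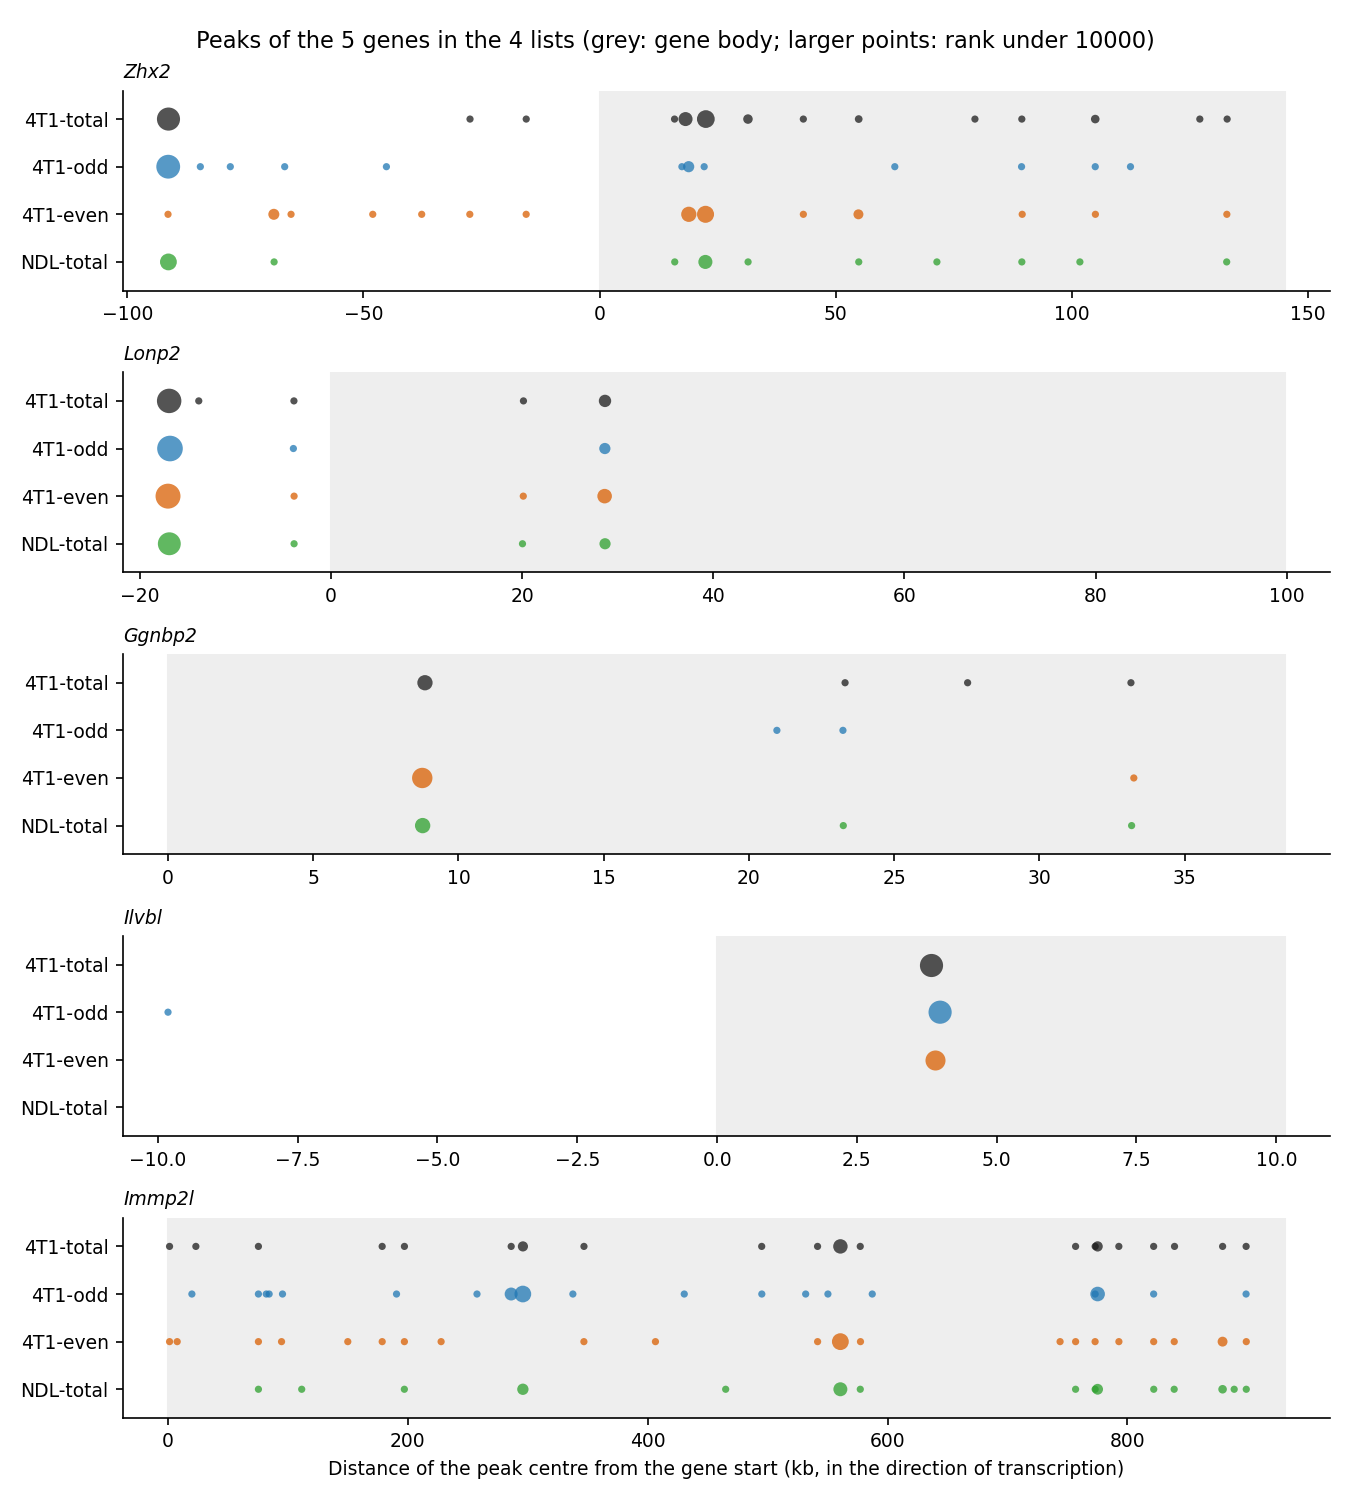
Peaks of the 4 lists along each gene, 1 panel per gene and 1 row per list, plotted as the distance of the peak centre from the gene's start in kb in the direction of transcription, with the gene body in grey and larger points for higher ranks (peaks below the rank given in the title share the smallest size). The leading peaks of Zhx2 and Lonp2 lie 91.3 and 16.9 kb before the start, and those of Ggnbp2, Ilvbl and Immp2l lie inside the gene.

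The number of peaks followed the length of the genes only in part. Inside the gene, the total pool gave 20 peaks in Immp2l, 11 in Zhx2, 4 in Ggnbp2, 2 in Lonp2 and 1 in Ilvbl. Per 100 kb this was 2.15 for Immp2l and 2.0 for Lonp2, against 3.35 over all protein-coding genes, and 7.58 for Zhx2, 9.85 for Ilvbl and 10.4 for Ggnbp2. Having a peak inside was common, as 10894 of 21755 protein-coding genes (50.1%) had at least 1 in the total pool. The rank of the best inside peak, which the choice may have used, differed widely between the members. In the total pool, 205 genes had a peak ranking as high as the best inside Zhx2, 553 as high as that of Ggnbp2, 726 as high as that of Immp2l and 1290 as high as that of Lonp2, each count including the gene itself.

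Overlapping peaks of the 4 lists were joined into 78 regions of the 5 genes, of which 38 were in 1 list, 13 in 2, 17 in 3 and 10 in all 4. Only 13 regions were in both the odd and the even list, 29 were in the even and not the odd list, and 24 in the odd and not the even list. Of the 44 peaks of the total pool, 32 (72.7%) overlapped an even peak, 18 (40.9%) an odd peak and 26 (59.1%) an NDL peak. Over all peaks of the total pool these shares were 61.1%, 37.7% and 66.4%. The members' shares are given as a description with no test, since the study chose its targets with its ChIRP-seq data. How far that choice used the odd and even lists is not known here.

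**Figure D4:**
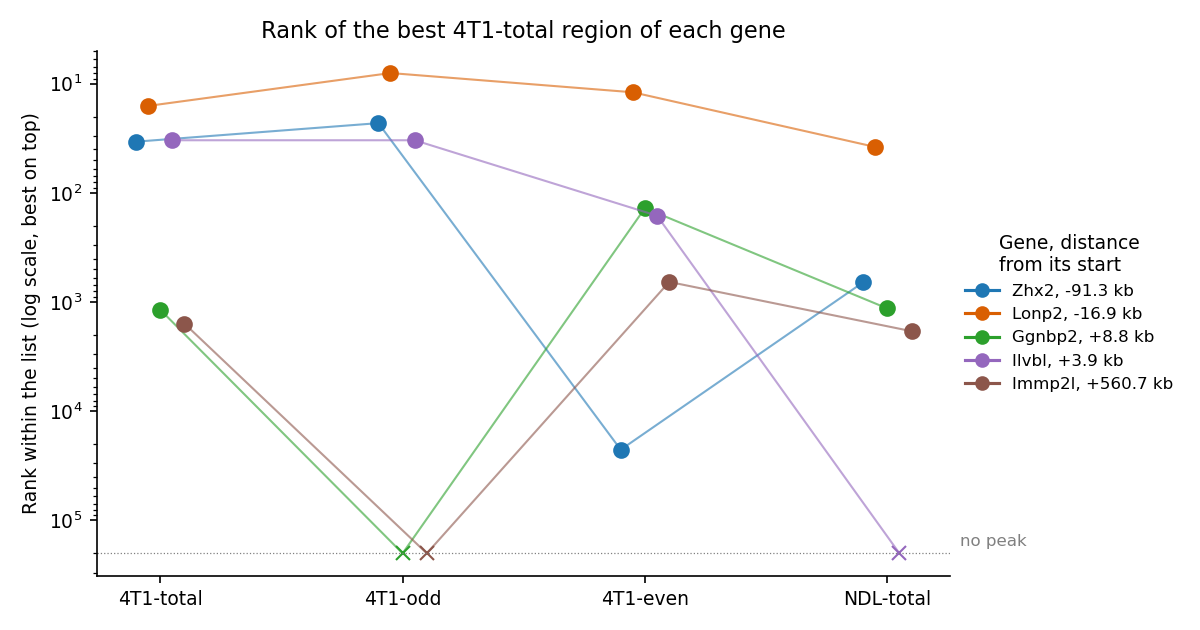
Rank within each of the 4 lists of the region that leads the total pool at each of the 5 genes, on a log axis with the best rank at the top; a cross on the dotted line marks a list with no peak, lines join the points of 1 gene, and distances are those of the centre of the joined region. The region before Lonp2 stays between rank 8 and rank 38 in all lists, while the region before Zhx2 drops to rank 22474 in the even list.

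Because the oligos themselves can bind DNA of like sequence, the members' peaks were searched on both strands for runs of 12 or more bases identical to the sequence or the complement of an oligo. In the total pool, 13 of the 44 member peaks (29.5%) held such a run, against 24.2% of all peaks. For the 8 Ppib oligos the count was 0 of 44, against 0.316% of all peaks. As the peaks were called over the Ppib pulldown, sites that Ppib oligos bind may have been left out beforehand, so this count is no independent control. In the odd list, 10 of 38 member peaks (26.3%) matched an odd oligo and 5 (13.2%) an even one, and over all odd peaks the shares were 18.0% and 6.11%. In the even list, 10 of 42 member peaks (23.8%) matched an even oligo and 1 (2.38%) an odd one, and over all even peaks the shares were 18.0% and 2.03%. The member peaks were longer, with a median of 625 bases in the total list, 625.5 in the odd list and 562.5 in the even list. The median of all peaks was 500 bases in each of these lists. A longer peak has more room for a run, and the shares were not adjusted for length. Whether these runs bear on the pulldown at the 5 genes was not tested. Which oligos were in which pool was taken from their numbers.

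The pool in which a peak of the total list was found again went with the oligos it matched. Of 4 member peaks that matched odd oligos alone, 4 overlapped an odd peak and 1 an even peak. Of 8 that matched even oligos alone, 8 overlapped an even peak and 4 an odd peak. Over all peaks of the total list, the 6399 that matched odd oligos alone overlapped an odd peak in 95.7% and an even peak in 20.5%, and the 11961 that matched even oligos alone did so in 30.1% and 82.3%. The remaining 31 member peaks without a match overlapped an odd peak in 9 and an even peak in 22, against 32.7% and 61.2% of the 58214 peaks without a match in the whole list.

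**Figure D5:**
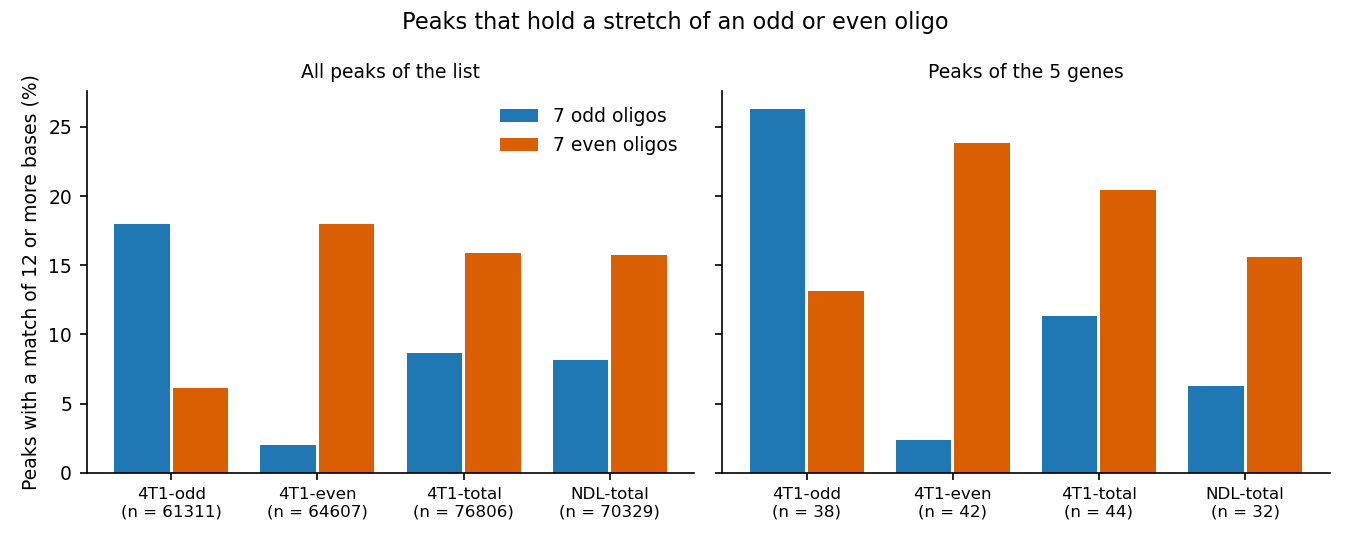
Share of peaks, in percent, that hold an exact run of 12 or more bases of the 7 odd or the 7 even MaTAR25 oligos, for all peaks of each of the 4 lists (left) and for the peaks of the 5 genes (right), with the number of peaks under each list. In the odd list more peaks match odd oligos (26.3% of the peaks of the 5 genes, 18.0% of all) and in the even list more match even oligos (23.8% and 18.0%).

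The letters GGTGG, which oligo 4 alone of the 14 holds, were searched on both strands. They were in 35 of the 44 member peaks of the total pool (79.5%) and in 77.5% of all its peaks. The longer TGGTGGTGG, which contains the former, was in 3 of 44 member peaks (6.82%) and in 8.62% of all. The member peaks stood close to the whole list in both.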

How the data were processed

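Polyadenylated RNA of 9 libraries was sequenced from single ends. Per the labels and the study's methods, the authors aligned reads with STAR and deposited HTSeq counts per gene of GENCODE vM5 on mm10, whole numbers that are not normalized. Rows that name no gene took 33.9% to 37.0% of the counts (not uniquely aligned reads 24.1% to 27.5%) and were left out, and the file of KO2 replicate 2 lists each gene 3 times with the same counts, used once. ChIRP reads were aligned with Bowtie2, and the authors called peaks with HOMER on pooled replicates at 50-fold or more over the Ppib pulldown. The deposited lists give each peak's position, score and nearest promoter, and columns with p-values or folds of the authors' own calling were not used. The submitters' processing notes also name CASAVA, FastQC and DESeq2.

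Counts were tested with edgeR 4.0.16 in R 4.3.3 (TMM library sizes, filterByExpr, quasi-likelihood F-test, Benjamini-Hochberg over 15023 genes, adjusted p under 0.1). KO against control is a fit of 2 groups, and the other comparisons come from a fit of 3. SE is the log2 fold change divided by the root of F. CPM are counts per 1000000 of the TMM-scaled total over the genes tested. Single genes were checked with exact permutation tests of log2(CPM + 1) in SciPy 1.17.1, in which no design here can reach 0.05. The labels do not say whether replicates were separate cultures, so p-values measure only the spread between these samples. Scripts were tested on simulated data. A peak belonged to a gene when it overlapped the gene by 1 base or had its promoter as the nearest, and regions are peaks of different lists that overlap by 1 base. Gene models, sequences and coordinates are those of GENCODE on GRCm38.p6, the build of mm10.

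The members and gene lists were chosen with earlier results of these data known. Named were the 5 genes, the 2 genes of each list with the largest absolute log2 fold change in KO against control, other list genes where the text singles them out, the 3 genes most like each member, and MaTAR25. A gene that this rule selects is not reported here. Alternatives were DESeq2 1.42.0, RLE size factors, other filters and thresholds, other sample sets, a replicate block, each library left out, stricter peak rules and other match lengths.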

Additional observations from a re-analysis of the deposited data

Results flagged for a closer look

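Decr2, of the peroxisomal matrix, stood at 14.0 CPM in KO2 replicate 3, far from the 3.82 to 5.38 CPM of the other 3 KO2 libraries. It was the only extreme library among 31 groups of 4 libraries examined, and chance alone marks about 1 group in 20. Among the 26 genes selected beside the 5 members, 3 differed between the clones in the test of KO1 against KO2 itself. Of all genes tested, 10.2% were called lower and 9.43% higher in KO1. Cyc1 was higher in KO1 by 0.68 on the log2 scale (adjusted p = 0.0747 by edgeR). Tbc1d31, a neighbour of Zhx2, was higher in KO1 by 1.05 (adjusted p = 0.0141 by edgeR). Siah1a, which converges with Lonp2, had a log2 difference of -0.50 between KO1 and KO2 (adjusted p = 0.0848 by edgeR), the same direction as that of Lonp2, which did not pass. Of these 3 calls, that of Tbc1d31 was kept in all alternative settings run. The call of Cyc1 was lost without either control library, without any 1 of the 3 KO1 libraries, without KO2 replicates 1 or 2 and with only the 2 clones in the fit. The call of Siah1a was lost under these settings too except without KO2 replicate 2, and also without KO2 replicates 3 or 4, without the filter on low counts and with a replicate block.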

How the results depend on the processing

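The log2 fold changes of the 5 genes against control were recomputed 225 times and stayed below 0 in all 225, with the call unchanged in 185, lost in 34 and gained in 6. The lowest and highest counts of members called when each library was left out in turn were 1 and 5 (main value 4) for KO against control, 2 and 4 (main value 4) for KO1, 2 and 5 (main value 5) for KO2, and 0 and 1 (main value 0) for KO1 against KO2. Leaving out either control library gave the lowest value in the comparisons with control. For KO2 against control the count was also 3 without KO2 replicate 1. Between the clones, Lonp2 was called without KO2 replicate 1 or 4, and Ggnbp2 without KO2 replicate 3. The count for KO2 fell from 5 to 3 at an adjusted p under 0.05, without the filter on low counts, and with a replicate block. Whether replicate numbers pair the samples is not known here. The deviations of same-numbered libraries correlated between -0.15 and 0.04, which cannot decide it with so few libraries in a group and no other pairs compared. With the replicate block 3 members were called in each comparison with control and 0 between the clones. The 44 peaks of the total pool became 16 when only peaks nearest to the member's promoter were taken and 15 at a score of 100 or more. The 10 regions in all 4 lists became 5 and 2 under the same rules. The 13 peaks with an oligo match became 27 at 10 bases, 6 at 14 bases and 0 with the Ppib oligos, over whose pulldown the peaks had been called. For the other genes selected, 1541 recomputed log2 fold changes kept their call in 1373, lost it in 126 and gained it in 42, and none that was called changed direction. The cause of these changes was not tested. Immp2l had the fewest counts of the 5 genes, at 32 to 119 per library.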
